A study of Rattus norvegicus with 6 samples.

Results

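The cytochrome P450 genes of the rat were examined in cultured Leydig cells, apart from the enzymes of testosterone and sterol synthesis. Members were all gene probes of the array whose RefSeq accession belongs to a rat symbol of the form Cyp, number, letter, with Cyp11a1, Cyp17a1, Cyp19a1 and Cyp51 left out. This gave 76 probes of 65 genes, out of 30367 probes, of which 18005 carry a symbol and cover 15168 genes. Cyp11b1, Cyp11b2, Cyp11b3 and Cyp21a1 make corticoids, so they are steroid-synthesis genes too, but the rule keeps them in. Prostacyclin synthase and thromboxane synthase are P450 enzymes whose symbols lack the Cyp prefix, and the rule leaves them out.

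The study exposed primary Leydig cells, the testosterone-producing cells between the seminiferous tubules, to exosomes shed by primary Sertoli cells, the nurse cells inside the tubules. The exosome group had 3 samples that received 5 µg/ml of these vesicles for 24 h, and the untreated group had 3 samples that received none. All 6 came from Sprague-Dawley rats and were cultured in F12/DMEM with 10% fetal bovine serum and antibiotics at 34 °C under 5% CO2, so the controls too had serum, which itself can carry vesicles. The labels name no dose other than this and no vesicle control, and they do not say whether replicates came from separate animals, so p-values measure the spread between these samples only.

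P450 enzymes are heme proteins that insert 1 atom of oxygen into fatty acids, sterols, retinoids, vitamins or foreign compounds, and take their electrons from a reductase in the endoplasmic reticulum or from ferredoxin in mitochondria. Liver is the main site of the xenobiotic families, while Leydig cells are best known for the P450 enzymes that make testosterone. Other P450 enzymes end signals, among them the CYP26 enzymes that break down retinoic acid and CYP7B1, which hydroxylates oxysterols and some steroids with a 3-beta-hydroxyl group.

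Signals are given below as a percentage of the 75th percentile of the processed intensity of the same array. That percentile was 1004, 1061 and 860 intensity units on the exosome arrays and 872, 779 and 753 on the untreated arrays, and no gene spot was saturated. Of gene spots, 67.2% to 72.2% were well above background on exosome arrays and 72.6% to 75.6% on untreated arrays. The dimmest probe that counted as such stood at 1.2% to 1.49% on exosome arrays and 1.02% to 1.25% on untreated arrays. Arrays of 1 group correlated at 0.984 to 0.994 and arrays of different groups at 0.969 to 0.983. All 3 untreated arrays share 1 scan time in their headers, exosome 1 and 2 share another, and exosome 3 has its own. Scan and group therefore cannot be told apart, and no scan holds both groups. Markers of the labelled cell type were present in part: Insl3, Star, Hsd3b1, Cyp11a1 and Nr2f2 were well above background on all arrays, Cyp17a1 on 5, and Lhcgr and Nr5a1 on none. Hsd17b3 was above background on too few arrays to be tested. Markers of other testis cells were also present, with 12 of 12 macrophage, 7 of 7 peritubular myoid, 8 of 10 Sertoli cell and 6 of 7 endothelial genes measured. Of 7 germ cell genes 2 were measured, and Ddx4, Prm1 and Sycp3 were above background on no array.

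The promoters of 3 genes are shown because these genes, Cyp2e1, Cyp26a1 and Cyp27a1, carried the largest falls that held in every scaling tried. Each is the 250 bases upstream of the RefSeq transcription start, 5′ to 3′, from the RefSeq table of build GRCr8. Capitals mark 3 motifs searched on both strands: GCGTG, the core bound by the dioxin receptor AHR with ARNT, AGGTCA, the element read by many nuclear receptors, and TATAAA, the TATA box. No match of 1 motif overlapped a match of another in these windows.
Cyp2e1: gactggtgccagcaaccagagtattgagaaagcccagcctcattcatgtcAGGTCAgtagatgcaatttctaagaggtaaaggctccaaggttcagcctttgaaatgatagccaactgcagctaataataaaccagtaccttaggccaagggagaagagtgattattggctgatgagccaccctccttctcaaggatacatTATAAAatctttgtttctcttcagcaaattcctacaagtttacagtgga
Cyp26a1: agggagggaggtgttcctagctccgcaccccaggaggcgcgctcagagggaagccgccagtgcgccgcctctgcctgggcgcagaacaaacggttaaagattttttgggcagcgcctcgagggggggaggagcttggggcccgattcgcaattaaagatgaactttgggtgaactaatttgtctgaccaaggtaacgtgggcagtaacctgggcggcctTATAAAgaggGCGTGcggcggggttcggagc
Cyp27a1: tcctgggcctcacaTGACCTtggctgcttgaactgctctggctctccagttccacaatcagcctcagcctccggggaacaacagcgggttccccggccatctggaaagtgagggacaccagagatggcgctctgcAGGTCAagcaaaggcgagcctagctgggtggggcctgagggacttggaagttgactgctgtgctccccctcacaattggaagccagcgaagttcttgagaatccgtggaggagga
The Cyp2e1 window lies at chr1:205269717-205269966, that of Cyp26a1 at chr1:244883572-244883821 and that of Cyp27a1 at chr9:83713282-83713531, all on the plus strand. G and C made up 42.8% of the bases for Cyp2e1, 60.4% for Cyp26a1 and 59.2% for Cyp27a1. Cyp2e1 held 1 AGGTCA and 1 TATAAA, Cyp26a1 held 1 GCGTG and 1 TATAAA, and Cyp27a1 held 2 AGGTCA. Promoters were found for 52 member genes. AGGTCA or its reverse complement stood in 34.6% of them, against 14.1% of 33469 promoters of the same length, TATAAA in 32.7% against 12.9%, and GCGTG in 23.1% against 25.9%. Of the 12 P450 genes that fell, 3 held AGGTCA, 4 TATAAA and 6 GCGTG. Many members stand beside another P450 gene, so their promoters may not be independent, and the shares were not tested. These are matches of letters and say nothing on binding.

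Of the 65 P450 genes, 37 (56.9%) reached the limit for testing, a probe well above background on 3 or more arrays, and so did 72.4% of all named genes. A probe was above background on all 6 arrays in 29 genes (44.6%, against 62.9% of all named genes), and 8 tested genes had 3 to 5 such arrays. The 28 untested genes were above background on no array (19 genes, 29.2%, against 19.7% of all named genes) or on 1 or 2 arrays (9 genes). Detection differed by subfamily, as the plot of detection by subfamily shows. None of the 5 Cyp3a genes, the dominant drug-metabolising P450 enzymes of liver, was above background on any array. Of the 7 Cyp2c genes, which include the sex-specific liver enzymes of the rat, only Cyp2c11 was tested, with 3 on no array. By contrast 5 of 7 Cyp4f genes, 4 of 5 Cyp2b genes, 3 of 5 Cyp2d genes and 3 of 3 Cyp2j genes were tested. Of 6 hepatocyte markers, Alb, Cps1 and Tat were above background on no array, while Ttr was on 6, Apoa1 on 5 and Serpina1 on 5. The list summed to 9.55% to 10.8% on exosome arrays and 10.0% to 11.7% on untreated arrays. Of its 3 tested genes 0 passed the test, against 43.8% of all tested genes. The files give no probe sequence, so matches of a probe to a close paralog were not analysed here. This touches the Cyp2b, Cyp2c, Cyp2d, Cyp4a, Cyp4f and Cyp11b genes above all, whose members are similar in sequence.

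**Figure D1:**
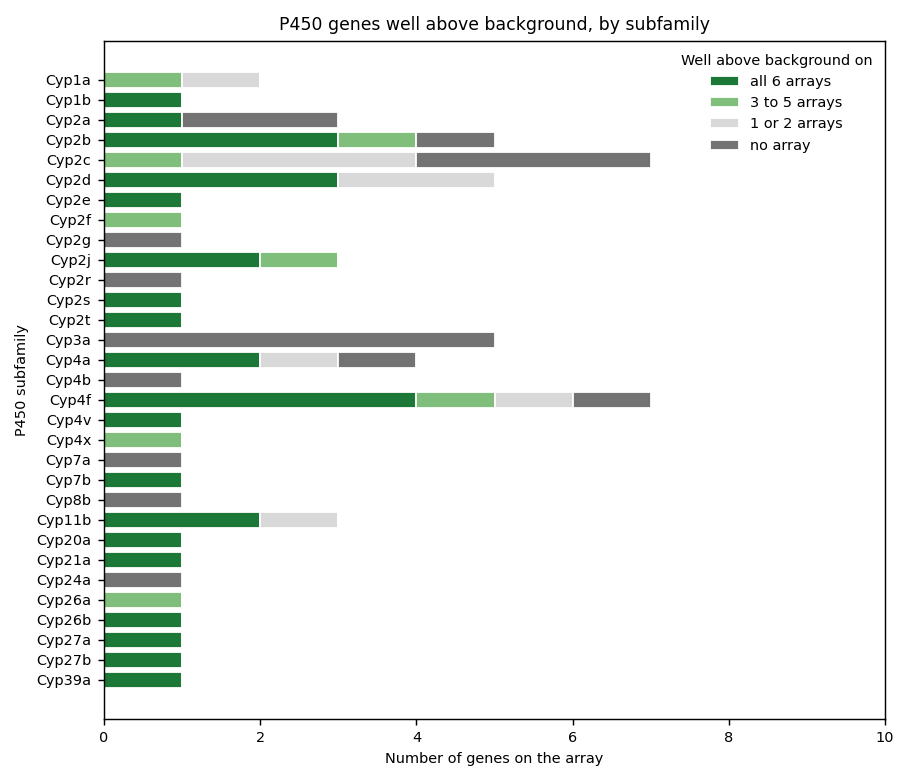
Number of P450 genes on the array (x axis) per subfamily (y axis), coloured by the number of arrays on which the gene's best probe was well above background. All 5 Cyp3a genes fall in the class of no array, while 29 of the 65 genes were above background on all 6.

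Fewer probes cleared background with exosomes. Of the member probes, 14 of 76 were above background on fewer exosome than untreated arrays and 3 on more, and among all 30367 probes these shares were 14.0% and 3.43%. The 3 probes above background on more exosome arrays were those of Cyp11b2, Cyp1a1 and Cyp2d3, each on 1 exosome array and no untreated one. Cyp1a1, the classic target of the dioxin receptor, stood at 1.75% on exosome 1, with 0.79% and 0.669% on the other exosome arrays and 0.49%, 0.577% and 0.517% on the untreated arrays. Cyp2c12, a female-specific liver P450 of the rat, was above background on 1 array only, untreated 1 at 6.04%, and its other 5 values lay between 0.295% and 1.45%.

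Of the 37 tested P450 genes, 2 rose (5.41%) and 12 fell (32.4%) with exosomes, and 23 did not pass the test. Among all 10981 tested genes, 14.6% rose and 29.2% fell (43.8% together), so the share that fell was near the background. The median log2 change was −0.32 over the P450 genes and −0.19 over all tested genes. A gene was represented by its tested probe of highest mean signal, changes are log2 differences of exosome minus untreated ± SE with 3 arrays per group, and adjusted p-values come from limma with Benjamini-Hochberg over 20435 tested probes. A change passed the test at an adjusted p below 0.05. Quantile normalization gave 3 higher and 6 lower with a median of −0.05, against 20.2% and 16.1% of all genes and a median of 0.01, and the authors' table also gave 3 and 6 (20.2% and 16.2%). Centring on the median gave 4 and 8 (25.1% and 16.9%), and the normexp correction 3 and 17 (17.9% and 35.3%). A 2-fold minimum left 0 higher and 6 lower (1.48% and 8.09%). Scaling therefore decided much of the balance, and the genes that passed in all of 5 scalings are described first in each group. In 19 of the 37 genes the exosome and untreated values were fully apart, 3 higher and 16 lower, against 62.0% of all tested genes (24.1% and 37.9%). Since RNA came from whole cultures, fewer cells of a type and less RNA per cell cannot be told apart.

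**Figure D2:**
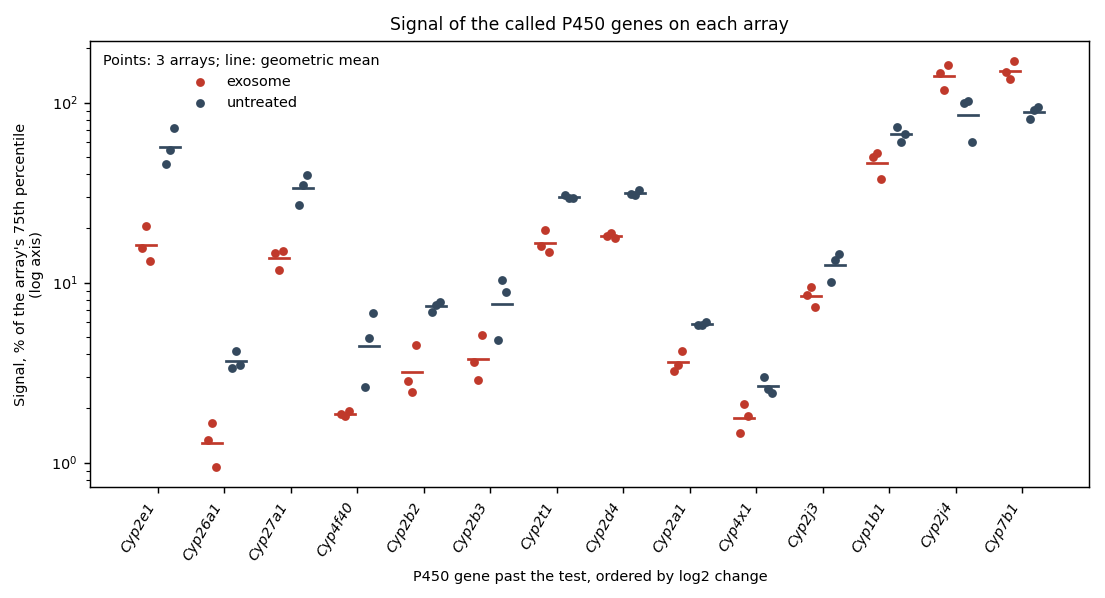
Signal as a percentage of the array's 75th percentile (y axis, log scale) of the 14 P450 genes past the test (x axis), with 3 exosome arrays left of 3 untreated arrays; points are arrays and lines geometric means. The groups are apart for all genes shown but Cyp2b3, and Cyp2j4 and Cyp7b1 are the ones higher with exosomes.

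**Figure D3:**
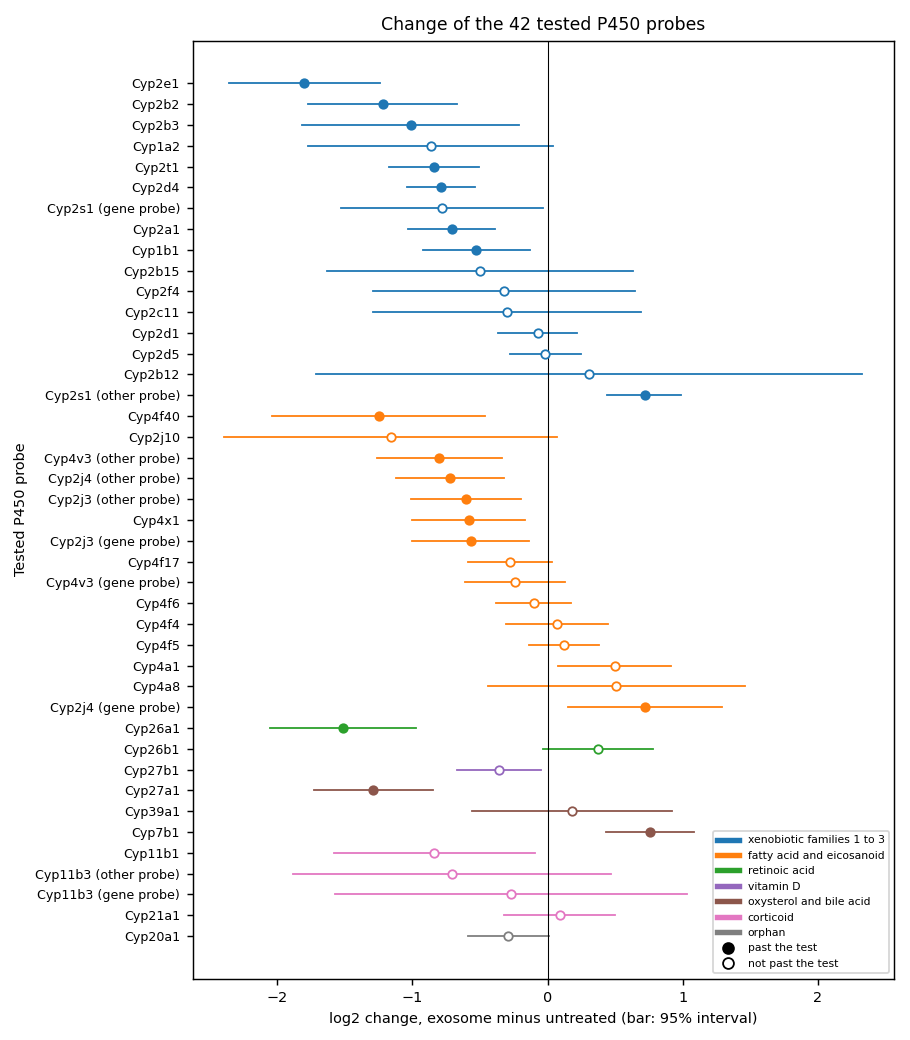
Log2 change, exosome minus untreated (x axis), with its 95% interval for the 42 tested P450 probes (y axis), coloured by role; filled points passed the test. Of the 42 probes 15 were lower and 3 higher past the test.

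Among the 33 genes of the xenobiotic families 1 to 3, 15 were tested, 0 rose and 7 fell, with a median change of −0.71, against 14.6% and 29.2% of all tested genes. Quantile normalization gave 0 and 4, against 20.2% and 16.1%. Cyp2e1, which oxidises ethanol and other small molecules and is best known from liver, had the largest fall of any P450 gene tested. Its signal was 15.6%, 20.7% and 13.1% on the exosome arrays, against 45.5%, 54.6% and 72.2% on the untreated arrays. Every exosome array lay below every untreated one, and the gene was measured by a probe spotted 10 times on each array. The change was −1.80 ± 0.24 (adjusted p = 0.00983, 95% interval −2.36 to −1.24), 3.49-fold lower. In the authors' deposited table its log2 values were 7.29, 7.64 and 7.06 with exosomes and 8.65, 8.89 and 9.31 without. Cyp2e1 passed the test in all 5 scalings, in which its change lay between −1.80 and −1.44, and whichever array was removed.

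Cyp2d4 and Cyp2t1 were the next most reproducible falls of this group. Cyp2d4, a CYP2D enzyme known from rat brain, stood at 18.1%, 18.8% and 17.7% on exosome arrays and 31.1%, 30.8% and 32.6% on untreated arrays. The spread within each group was small (SD 0.05 and 0.04 log2), and the change was −0.79 ± 0.11 (adjusted p = 0.00983). The neighbouring subfamily members Cyp2d1 and Cyp2d5 did not follow. Cyp2d1 had 32.7%, 31.2% and 34.7% with exosomes and 38.3%, 31.9% and 33.9% without (change −0.07, 95% interval −0.37 to 0.22), and Cyp2d5 had a change of −0.02 (−0.28 to 0.25). The sign of both turned positive under quantile normalization (0.11 and 0.16). Cyp2t1 had 16%, 19.5% and 14.7% on exosome arrays and 30.7%, 29.3% and 29.3% on untreated arrays, with a change of −0.84 ± 0.14 (adjusted p = 0.011). Cyp2d4 and Cyp2t1 passed in all 5 scalings and without any 1 array.

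The Cyp2b genes, whose founding members respond to phenobarbital in liver, fell or missed the test. Cyp2b2 was at 2.85%, 2.48% and 4.51% with exosomes, against 6.84%, 7.52% and 7.83% without (change −1.22 ± 0.23, adjusted p = 0.0125), and it passed in all 5 scalings. It missed the test without untreated 2 and without untreated 3. Its other probe, above background on 1 array, went untested. Cyp2b3 fell by 1.01 (SE 0.34, adjusted p = 0.0498), close to the threshold, with exosome 3 at 5.09% above untreated 1 at 4.81%. After quantile normalization it did not pass (−0.60, adjusted p = 0.155), nor did it without exosome 1, exosome 2, untreated 2 or untreated 3. Cyp2b15 had a change of −0.50 ± 0.47 and Cyp2b12 one of 0.31 ± 0.84, both with wide spread. For Cyp2b12 the untreated arrays ranged between 0.536% and 4.79%.

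Cyp2a1, a testosterone 7-alpha-hydroxylase of rat liver, stood at 3.22%, 3.47% and 4.16% on exosome arrays and 5.80%, 5.78% and 6.06% on untreated arrays. Its change of −0.71 ± 0.13 (adjusted p = 0.0124) shrank to −0.26 under quantile normalization (adjusted p = 0.202), and it was lost without untreated 2 and without untreated 3. Cyp1b1, which hydroxylates oestrogens and polycyclic hydrocarbons and is known from steroid-making tissue, stood at 49.5%, 52.6% and 37.5% with exosomes, against 72.7%, 60.7% and 66.5% without. Its change was −0.53 ± 0.17 (adjusted p = 0.0418), and with an array removed it passed only when that was exosome 2. It passed in 2 of the 5 scalings. Cyp1a2, above background on 1 exosome and 3 untreated arrays, had a change of −0.86 ± 0.38 (adjusted p = 0.107). Cyp2f4 and Cyp2c11 had changes of −0.32 ± 0.40 and −0.30 ± 0.41, both positive under quantile normalization (0.34 and 0.23).

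Among 17 genes of fatty acid and eicosanoid metabolism, 12 were tested, 1 rose and 3 fell, with a median of −0.17. Of all tested genes 14.6% rose and 29.2% fell. Quantile normalization gave 2 and 0, against 20.2% and 16.1%. The CYP2J enzymes turn arachidonic acid into epoxides. Cyp2j4 was the gene that rose, at 145%, 118% and 161% on exosome arrays and 100%, 102% and 60.5% on untreated arrays. The change was 0.72 ± 0.24 with an adjusted p of 0.04999, and it missed the test in each of the 6 fits without 1 array. Its other probe went the opposite way and is described below. Cyp2j3 fell by 0.57 (SE 0.18, adjusted p = 0.042), with 8.56%, 9.41% and 7.32% on exosome arrays and 10.1%, 13.4% and 14.4% on untreated arrays. Its change was −0.24 under quantile normalization (adjusted p = 0.219). Cyp2j10, above background on 1 exosome and 3 untreated arrays, had a change of −1.16 ± 0.51 (adjusted p = 0.11).

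The CYP4 enzymes hydroxylate the far end of fatty acids, and the CYP4F branch also inactivates leukotriene B4. Cyp4f40 fell by 1.25 (SE 0.33, adjusted p = 0.0261), with 1.86%, 1.82% and 1.93% on exosome arrays, of which 1 was above background, and 2.63%, 4.94% and 6.78% on untreated arrays. Under quantile normalization it did not pass (−0.77, adjusted p = 0.0668), and it passed in 1 of the 6 fits with an array removed. Cyp4x1 was above background on 3 untreated arrays and 0 exosome arrays, and so reached the test through the group in which it is higher. It had 1.46%, 2.12% and 1.81% with exosomes and 2.99%, 2.57% and 2.43% without (1.5-fold lower as measured, adjusted p = 0.0356), and its exosome values lay above the dimmest detected probe, so this fold is no lower bound. Quantile normalization left a change of −0.02, and 1 of the 6 fits with an array removed passed. Cyp4a1, a target of PPAR-alpha in liver, had 6.84%, 6.87% and 6.86% on exosome arrays and 3.94%, 4.81% and 6.07% on untreated arrays. Its change of 0.50 ± 0.17 missed the test (adjusted p = 0.0573), and it passed under quantile normalization (0.92, adjusted p = 0.0159). The other tested Cyp4f genes did not pass the test, with changes of 0.12 for Cyp4f5 (95% interval −0.14 to 0.38), −0.10 for Cyp4f6 (−0.38 to 0.17), 0.07 for Cyp4f4 (−0.31 to 0.45) and −0.28 for Cyp4f17 (−0.59 to 0.03). Cyp4f4 passed as a rise in limma fits of the authors' deposited table (0.52, adjusted p = 0.0376) and of quantile normalized values (0.52, adjusted p = 0.0389). Cyp4v3 had a change of −0.24 ± 0.16.

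Of the 2 retinoic acid hydroxylases, Cyp26a1 fell and Cyp26b1 did not pass the test. Cyp26a1 was above background on 3 untreated arrays and 0 exosome arrays, so it too was tested through its higher group. It stood at 1.33%, 1.66% and 0.944% on exosome arrays and 3.34%, 4.18% and 3.46% on untreated arrays. It was 2.85-fold lower with exosomes as measured (adjusted p = 0.0101), and 2.53-fold with exosome 3 raised to the dimmest detected value of its array. Only exosome 3 lay below that value, and other scalings gave smaller changes, so 2.53-fold is no lower bound. Cyp26a1 passed in all 5 scalings, with a fitted change between −1.51 and −0.51, and without any 1 array. Cyp26b1, which in the fetal mouse testis keeps retinoic acid from germ cells, had 167%, 188% and 222% on exosome arrays and 173%, 144% and 129% on untreated arrays. The groups overlapped, and the change of 0.37 ± 0.17 missed the test (adjusted p = 0.115). The difference between the changes of Cyp26a1 and Cyp26b1 was not tested.

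Of 3 tested oxysterol and bile acid genes, 1 rose and 1 fell, against 14.6% and 29.2% of all tested genes. Cyp27a1, the mitochondrial sterol 27-hydroxylase, stood at 14.5%, 11.8% and 15% on exosome arrays and 27%, 34.9% and 39.8% on untreated arrays. It fell by 1.29 (SE 0.18, adjusted p = 0.00983), 2.45-fold lower, in all 5 scalings and without any 1 array. Cyp7b1, which removes 27-hydroxycholesterol and related steroids by 7-alpha-hydroxylation, had 147%, 135% and 170% with exosomes and 81.4%, 90.9% and 94.3% without. It rose by 0.76 ± 0.14 (adjusted p = 0.0117), 1.69-fold, in all 5 scalings, and missed the test without untreated 2 (0.78). In the authors' deposited table its log2 values were 10.40, 10.28 and 10.54 on exosome arrays, against 9.50, 9.66 and 9.70 on untreated arrays. Cyp39a1, which hydroxylates 24-hydroxycholesterol, had a change of 0.18 ± 0.31 (adjusted p = 0.662). Cyp7a1, the rate-limiting enzyme of bile acid synthesis in liver, and Cyp8b1 were above background on no array.

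Of the vitamin D enzymes Cyp27b1, which makes the active hormone, was measured, and Cyp24a1 and Cyp2r1 were above background on no array. Cyp27b1 had 10.2%, 8.80% and 10.7% on exosome arrays and 12.1%, 12.3% and 13.7% on untreated arrays, with no overlap between groups. Its change of −0.36 ± 0.13 missed the test (adjusted p = 0.0612) and was −0.04 under quantile normalization. The corticoid genes gave 0 rises and 0 falls among 3 tested, against 14.6% and 29.2% of all tested genes. Cyp21a1, the 21-hydroxylase, had a change of 0.09 ± 0.17 (95% interval −0.32 to 0.50), Cyp11b1, the 11-beta-hydroxylase, one of −0.84 ± 0.31 (adjusted p = 0.0679), and Cyp11b3 one of −0.27 ± 0.54. Cyp11b2, the aldosterone synthase, cleared background on 1 array and went untested. Cyp20a1, an orphan P450 with no settled substrate, had 85.9%, 102% and 85.1% with exosomes and 105%, 116% and 112% without, and its change of −0.29 ± 0.13 missed the test (adjusted p = 0.10).

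Probes of 1 gene did not always move together. In 5 genes 2 probes were tested, and the plot of genes with 2 tested probes shows their values. For Cyp2j4 the brighter probe rose by 0.72, while the other had 15.8%, 18.6% and 14.9% on exosome arrays and 23.3%, 25.8% and 32.6% on untreated arrays, a fall of 0.72 (SE 0.17, adjusted p = 0.0191). Both probes separated the groups completely, in opposite directions. The falling probe passed in all 5 scalings and in 2 of the 6 fits with an array removed. The rising probe passed in 3 scalings and in 0 of those fits. For Cyp2s1, a P450 found mainly outside liver, the brighter probe had a change of −0.78 ± 0.31 (adjusted p = 0.0837) with overlapping groups. The other tested probe rose by 0.72 ± 0.11 (adjusted p = 0.0105) and in all 5 scalings. It had 10.2%, 10.2% and 11.2% on exosome arrays and 6.85%, 6.12% and 6.22% on untreated arrays. A further Cyp2s1 probe, above background on 0 exosome and 2 untreated arrays, went untested. Its values were lower with exosomes, at 0.591%, 0.475% and 1.41%, against 1.43%, 3.29% and 3.06% on untreated arrays. For Cyp4v3 the other probe fell by 0.80 (SE 0.19, adjusted p = 0.0202), with 7.40%, 8.93% and 5.48% on exosome arrays and 11.9%, 13.0% and 12.4% on untreated arrays, beside the change of −0.24 of the brighter probe. It did not pass after quantile normalization (−0.46, adjusted p = 0.0887). Only the 2 probes of Cyp2j3 fell together (−0.57 and −0.60). Those of Cyp11b3 had changes of −0.27 and −0.71, neither past the test. Cyp4a8 had a similar split in detection. Its bright probe stood at 564%, 249% and 583% with exosomes and 404%, 209% and 337% without, and the other cleared background on no array. The change of the bright probe was 0.51 ± 0.40 (adjusted p = 0.327). With all tested probes counted, 3 of 42 were higher and 15 lower, against 11.4% and 31.0% of all tested probes.

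**Figure D4:**
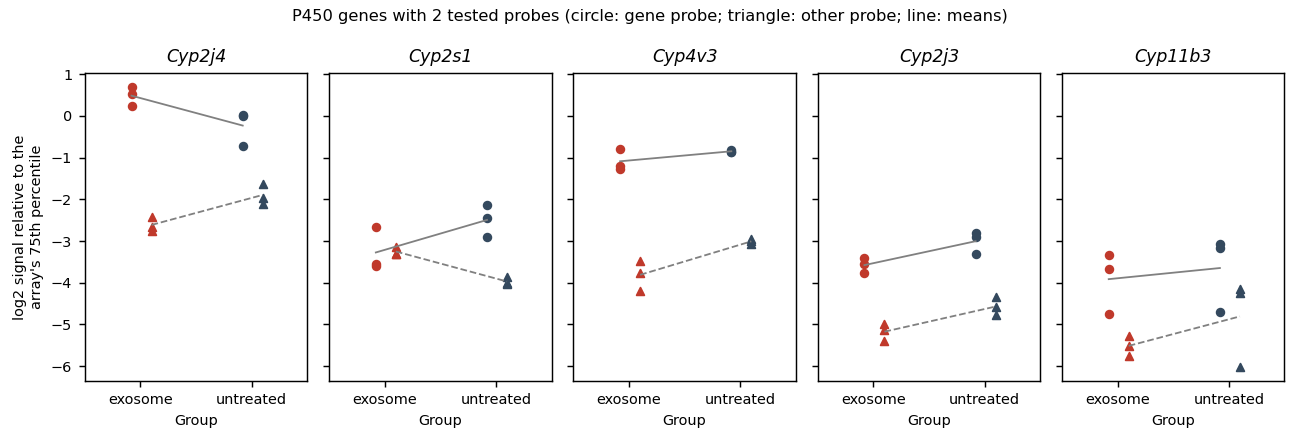
Log2 signal relative to the array's 75th percentile (y axis) in 3 exosome and 3 untreated arrays (x axis) for the 5 P450 genes with 2 tested probes; circles are the brighter probe, triangles the other, lines join group means. The lines of Cyp2j4 slope opposite ways, with changes of 0.72 and −0.72, and so do those of Cyp2s1, with −0.78 and 0.72.

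The scaling set the size of most falls. Of the 14 genes past the test, 7 passed in the same direction in all 5 scalings: Cyp2e1, Cyp27a1, Cyp26a1, Cyp2b2, Cyp2d4 and Cyp2t1 as falls and Cyp7b1 as a rise. Among all tested genes 12.2% fell and 12.8% rose in all 5. Quantile normalization and the authors' table gave near-equal changes, −1.62 in both for Cyp2e1, so these 2 are not separate checks. The 9 tested P450 probes above background on fewer than 6 arrays had a median change of −0.71, against −0.22 after quantile normalization. For the 33 probes above background on all 6 arrays the medians were −0.29 and −0.08. Most of the dim probes, among them Cyp26a1 and Cyp4x1, were above background on fewer exosome than untreated arrays. Their lower median thus follows in part from how the class was formed. Single arrays mattered as well. Cyp2e1, Cyp27a1, Cyp26a1, Cyp2d4 and Cyp2t1 stayed past the test in each fit without 1 array, as did 7.96% of all tested genes. With untreated 2 removed the P450 counts were 0 higher and 5 lower, and with untreated 3 removed 2 and 5. Removing exosome 1 left 1 and 7, removing exosome 2 left 1 and 13, removing exosome 3 left 1 and 9, and removing untreated 1 left 1 and 11. For all genes the counts were 1598 and 3209 with every array. They were 134 and 820 without untreated 2, 214 and 1002 without untreated 3, and 377 and 1406 without exosome 1. Without exosome 2 they were 1725 and 3295, without exosome 3 767 and 2381, and without untreated 1 1566 and 3283. Untreated 1 was the lowest of its group for 25 of the 42 tested P450 probes, and for 55.2% of all tested probes. With scan as a random block the P450 counts were 1 and 8, and those of all genes 1189 and 2710. No scan holds both groups, so this block cannot remove a scan effect from the comparison.

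**Figure D5:**
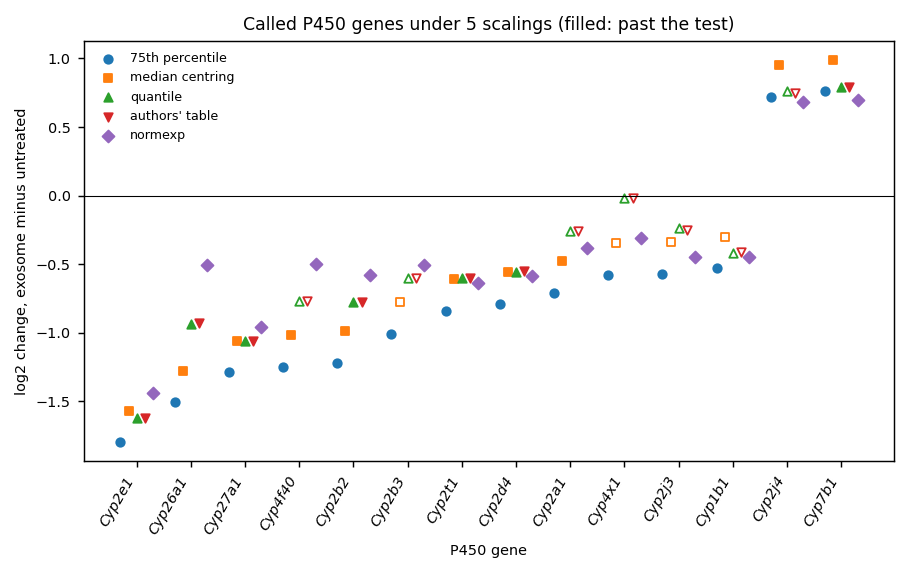
Log2 change, exosome minus untreated (y axis), of the 14 P450 genes past the test (x axis) under the 75th percentile scaling, centring on the median, quantile normalization, the authors' table and a normexp background correction; filled symbols passed the test. Cyp2e1 stays between −1.80 and −1.44, whereas Cyp4x1 lies at −0.02 after quantile normalization.

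Member genes often lie in gene clusters. In the GRCr8 gene order 46 of the 65 stand directly beside another P450 gene and 19 do not. Of the clustered genes 58.7% were tested and 10 of those 27 passed the test, and of the others 52.6% were tested and 4 of those 10 passed. Of all named genes 72.4% were tested, and 43.8% of all tested genes passed.

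The genes around the P450 enzymes gave 7 rises (13.5%) and 18 falls (34.6%) among 52 tested, with a median change of −0.20. Quantile normalization gave 12 and 12. Among all tested genes 14.6% rose and 29.2% fell, with a median of −0.19, and 20.2% and 16.1% did under quantile normalization. Of 10 electron transfer genes 3 rose and 3 fell. Por, the reductase of all microsomal P450 enzymes, stood at 4.92%, 5.24% and 5.22% on exosome arrays and 8.62%, 7.65% and 8.17% on untreated arrays. It fell by 0.67 (SE 0.11, adjusted p = 0.011), though its change was −0.26 under quantile normalization (adjusted p = 0.159). Cyb5r3, which reduces cytochrome b5, fell by 1.12 (SE 0.17) in all 5 scalings, while its relative Cyb5r1 rose by 1.49 ± 0.32 and Pgrmc1, a heme protein that binds P450 enzymes, by 0.63 ± 0.15. Cyb5r1 and Pgrmc1 missed the test without exosome 1, without untreated 2 and without untreated 3. Cyb5r1 had 2 tested probes and Pgrmc1 had 3, and only the brightest of each is given.

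Of 17 receptor and partner genes that control P450 transcription 2 rose and 6 fell, against 14.6% and 29.2% of all tested genes. On the dioxin receptor axis Ahr was above background on 1 exosome and 3 untreated arrays, with 1.49%, 1.70% and 3.04% on exosome arrays and 3.35%, 4.49% and 6.17% on untreated arrays. It fell by 1.20 (SE 0.33, adjusted p = 0.0298), but not under quantile normalization (−0.70, adjusted p = 0.118), and it missed the test without exosome 1, exosome 2, untreated 2 or untreated 3. Ahrr, the repressor that AHR itself induces, was at 256%, 214% and 242% with exosomes and 130%, 126% and 136% without, a rise of 0.86 ± 0.12 (adjusted p = 0.00983). Arnt, the partner of AHR, had a change of 0.10 ± 0.44. Nr1i2, the pregnane X receptor that drives Cyp3a and Cyp2b genes in liver, had 16.4%, 19.6% and 18.8% on exosome arrays and 39.8%, 36.8% and 44.3% on untreated arrays, and fell by 1.14 (SE 0.13, adjusted p = 0.00983). Nr5a2, an orphan receptor that acts on Cyp7a1 in liver, was above background on 0 exosome and 3 untreated arrays and so was tested through its higher group. It was 3.0-fold lower with exosomes as measured (adjusted p = 0.00983), and 1.78-fold with the exosome arrays raised to their dimmest detected values. Normexp gave a smaller change of −0.41, so 1.78-fold is no lower bound. Ppard, a fatty acid receptor, fell by 1.0 (SE 0.15) at the brighter of its 2 tested probes, the only one given. Ahrr, Nr1i2 and Ppard passed in all 5 scalings and without any 1 array.

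Of 12 retinoid genes 2 rose and 3 fell. Dhrs3, which returns retinal to retinol, and Aldh1a3, which makes retinoic acid, fell by 0.91 (SE 0.16) and 0.92 (SE 0.16). Rbp4, the plasma carrier of retinol, rose by 0.73 ± 0.16 and Rdh10, which makes retinal, by 0.50 ± 0.16. Rdh10 passed in 1 of the 6 fits with an array removed, Rbp4 missed it without exosome 1, untreated 2 or untreated 3, and Aldh1a3 without untreated 2. Of 13 genes of epoxide hydrolysis and conjugation 0 rose and 6 fell, and quantile normalization gave 2 and 3. Among all tested genes these shares were 14.6% and 29.2%, and 20.2% and 16.1% under quantile normalization. Fmo1, a flavin monooxygenase that shares substrates with P450 enzymes, had 6.98%, 10.2% and 7.73% on exosome arrays and 19.6%, 20.5% and 20.8% on untreated arrays, a fall of 1.31 (SE 0.16, adjusted p = 0.00983). Ephx1, the microsomal epoxide hydrolase, had 10.7%, 9.13% and 11.1% with exosomes and 19.3%, 23.2% and 26.5% without, a fall of 1.15 (SE 0.16, adjusted p = 0.00983). Both passed in all 5 scalings and without any 1 array. Fmo5 fell by 0.87 (SE 0.22), and it missed the test without exosome 1, exosome 3, untreated 2 or untreated 3.

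Of the P450 genes of steroid and sterol synthesis that the rule leaves out, Cyp11a1 fell by 0.86 (SE 0.12), Cyp51 rose by 0.38 ± 0.12 and Cyp17a1 had a change of −0.30 ± 0.23, which was 0.20 under quantile normalization. Cyp51 passed in 1 of the 6 fits with an array removed. Markers of other testis cells moved in both directions beside these P450 changes. For reference, 14.6% of all tested genes rose and 29.2% fell, with a median change of −0.19. Of the 7 peritubular myoid genes 1 rose and 3 fell, with a median change of −0.49, and their summed signal was 3200% to 3920% on exosome arrays and 4670% to 4960% on untreated arrays. Of the 8 tested Sertoli cell genes 1 rose and 3 fell, with a median of 0.02. Their sum of 2900% to 3440% on exosome arrays and 3670% to 4390% on untreated arrays held a large share from Clu, at 880%, 1080% and 838% with exosomes and 1580%, 1840% and 2300% without. Wt1, another Sertoli cell gene, rose by 0.49 ± 0.14 (adjusted p = 0.0321) at the brightest of its 3 tested probes, the only one given. Of the 12 macrophage genes 0 rose and 4 fell, with a median of −0.20. They summed to 4290% to 4870% on exosome arrays and 4610% to 4780% on untreated arrays. The sum of exosome 3 was lowered by Cd68, at 9.13% there, against 888% and 1020% on exosome 1 and 2. On untreated arrays Cd68 stood at 909%, 1100% and 1060%. Of the 6 tested endothelial genes 2 rose and 4 fell, with a median of −0.62. Their sum was 132% to 160% on exosome arrays and 108% to 123% on untreated arrays, most of it from Pecam1, at 106%, 84% and 115% with exosomes and 61.3%, 48.2% and 41.6% without, so sum and median pointed opposite ways. Of the 2 tested germ cell genes 0 rose and 1 fell. Prm2 fell by 0.46 (SE 0.14, adjusted p = 0.0412), with a change of 0.02 under quantile normalization, and Tnp1 had a change of −0.03 ± 0.13. The Sertoli markers Amh and Gata1 and the endothelial marker Tek were above background on no array. The part of these cells in the P450 changes was not tested.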

How the data were processed

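RNA of 6 Leydig cell samples was read on 1-colour Agilent arrays. Per the file headers, intensities came from Agilent Feature Extraction 11.0.1.1, and the processed intensity has its background subtracted on each array separately, with no scaling across arrays. The log2 values of the table the authors deposited share 1 median (5.68) and correlated with the log2 intensity of their own array at 0.996 or above, so they look quantile normalized, which no source states, and served as an alternative. Spots that the scanner software marked as outliers (388 to 572 per array) were dropped, and each probe took the mean log2 value of its remaining spots. The 75th percentile over gene spots was subtracted. Probes were tested if on 3 or more arrays the spots well above background were no fewer than the rest. limma 3.58.1 (R 4.3.3) fitted the 2 groups, with prior degrees of freedom of 2.6. Tables used Python 3.11.15, pandas 2.3.3 and numpy 2.4.6, and figures matplotlib 3.10.9. Symbols came from RefSeq accessions in a table of assembly GRCr8, used for names and gene order because the array was designed on rn4; 12362 probes had none.

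The procedure was tested on simulated data. A fold with the dim group raised was computed for genes above background in only 1 group. It compares the mean of the brighter group with the dim group raised, array by array, to the dimmest value well above background. The number of arrays limits precision. Named were all P450 genes past the test or above background on all 6 arrays, all retinoic acid, vitamin D, sterol and corticoid members, the 4 genes of smallest p in each surrounding list, and Por, Ahr and Arnt, except 1 gene that is not reported here; dimmer members named beside these were chosen after their values were seen. Members and lists were chosen with earlier results of these data known. Alternatives were a normexp background correction (offset 50, on median signals because the files hold no mean signal), quantile normalization, centring on the median of tested probes, other filters, the authors' table, blocks for replicate number and scan, trend and robust moderation, a 2-fold minimum and leaving out each array.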

Additional observations from a re-analysis of the deposited data

How the results depend on the processing

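Counts are given as higher and lower with exosomes. For all genes they were 1598 and 3209, with 2756 and 1856 after centring on the median, 2214 and 1766 after quantile normalization, 2217 and 1783 in the authors' table, 864 and 2584 without a filter, 768 and 2410 with a replicate block, and 163 and 888 with a 2-fold minimum. For P450 genes they were 2 and 12, with 4 and 8 after centring on the median, 3 and 6 after quantile normalization or in the authors' table, 1 and 9 without a filter, 1 and 9 with a replicate block, 1 and 8 with scan as a random block, and 0 and 6 with a 2-fold minimum. P450 probes gave 5 and 10 after centring on the median and 4 and 7 after quantile normalization or in the authors' table. Surrounding genes gave 7 and 18, with 14 and 15 for a 75th percentile over probes (chosen after seeing the data), 12 and 12 in the authors' table or after quantile normalization, 15 and 13 after centring on the median, 4 and 13 without a filter, 11 and 21 with normexp, 3 and 15 with a replicate block, 13 and 19 with trend and robust moderation, and 11 and 16 for genes above background on all 6 arrays. Leaving out 1 array gave 134 to 1725 and 820 to 3295 for all genes, 0 to 2 and 5 to 13 for P450 genes, 0 to 3 and 5 to 15 for P450 probes, and 1 to 9 and 9 to 21 for surrounding genes. The samples share only a replicate number: the deviations of same-numbered arrays correlated at −0.0872, −0.0281 and −0.0236.

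Over 920 alternatives for 58 named genes and probes, 726 kept direction and side of the threshold, 145 lost the call, 21 gained one and 28 changed sign. Cyp2d1 (−0.07) was 0.02 with the percentile over probes, 0.11 in the authors' table and after quantile normalization and 0.16 after centring on the median. Cyp2d5 (−0.02) was 0.08, 0.16 and 0.21 under the same settings, and −0.07 to 0.01 without 1 array. Cyp11b3 (−0.27) was 0.09 in the authors' table and after quantile normalization, and −0.80 to 0.15 without 1 array. Cyp17a1 was 0.20 in the authors' table and after quantile normalization, and Cyp4f6 was 0.13 after centring on the median. With normexp, Cyp4f4 was −0.08, Cyp39a1 −0.11 and Arnt −0.13. Without 1 array Cyp4f4 lay between −0.05 and 0.15, Cyp39a1 between −0.03 and 0.44, Arnt between −0.36 and 0.48, and Cyp21a1 between −0.02 and 0.22. None of these genes passed the test in the 75th percentile scaling, and the cause of the changes was not tested. Genes near background are limited by signal.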
